A study of Mus musculus with 4 samples.

Results

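Transcripts of 8 genes for heterogeneous nuclear ribonucleoproteins (hnRNPs) and related RNA-binding proteins carried peaks of DDX5 binding in cultured mouse Th17 cells. The genes, Hnrnpf, Hnrnpk, Hnrnpa3, Hnrnpu, Hnrnph3, Matr3, Taf15 and Tardbp, were chosen by their names in the deposited list of reproducible peaks, so the presence of a peak is not a result. They held 15 of the 900 peaks and were 8 of the 459 genes that the list names. Of 21896 protein-coding genes in RefSeq, 396 had a peak (1.81%). This share is given as the background, and nothing is read from it about the 8 genes, since the rule required a peak.

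The peaks come from enhanced crosslinking and immunoprecipitation (eCLIP), in which ultraviolet light fixes RNA to bound protein and the protein is pulled down with the RNA fragments it protects. There were 2 groups, 2 immunoprecipitates (IP) with an antibody to DDX5 and 2 inputs made with no antibody, with replicate numbers 1 and 2 in each. All 4 libraries were from Th17 cells of wild-type C57BL/6 female mice, grown for 72 h from naive CD4 T cells with antibodies to CD3 and CD28, IL-6 and TGF-β. The sample labels give an age of 8 weeks and the design text 8 to 10 weeks and 2 mice, but neither ties a mouse to a library. The labels also enter Th17 as a cell line, although the protocols describe primary cells. A list of bound RNA is no test of cell type: of 6 T cell and Th17 markers 1 had a peak (Rora), and of 3 B cell and 3 myeloid markers 0 had one.

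For each peak the authors deposited 1 enrichment (log2 of the fold of IP against input) and 1 significance value (−log10 p), each covering both replicates. No spread between replicates can therefore be given, SD values below are over the peaks of a gene, and no difference was tested. Peaks of 1 gene are not independent of each other. A fold against input can depend on how well the input covers the RNA. The depth of the libraries is unknown. Peak positions are on mm10, counted from 1, and the peaks of a gene are numbered from its 5′ to its 3′ end.

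hnRNPs are nuclear proteins that coat new transcripts and take part in splicing, RNA export and RNA stability. Many of them, and the related FET proteins and TDP-43, are known to limit their own level by acting on their own transcripts, often through an alternative exon or intron that leads to decay of the RNA. DDX5 is a DEAD-box RNA helicase that works with splicing factors, hnRNPs among them.

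Sequence was at hand only around annotated transcript starts, from RefSeq on GRCm38.p6, and 2 stretches are shown because they lie in or next to peaks and outside the exons annotated at those peaks. Windows that may hold exon sequence are not shown, among them that of Hnrnpk, which also lies next to a peak. All are written 5′ to 3′ on the sense strand, which reads as the RNA does, with runs of 4 or more G or of 4 or more C in capitals. The first is the 250 bases of Hnrnpf intron at chr6:117907554-117907803 on the plus strand. It begins 10 nt after the end of the most enriched peak of the 8 genes and ends just before the third RefSeq start. The second is the part of Hnrnpf peak 5 that precedes an annotated exon, at chr6:117917226-117917293 on the plus strand.
Hnrnpf between peaks 3 and 4: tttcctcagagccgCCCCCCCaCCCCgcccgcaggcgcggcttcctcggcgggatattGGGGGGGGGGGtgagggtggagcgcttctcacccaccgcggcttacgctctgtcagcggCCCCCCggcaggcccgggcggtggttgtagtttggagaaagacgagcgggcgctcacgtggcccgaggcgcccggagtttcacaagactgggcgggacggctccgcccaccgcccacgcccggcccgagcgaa
Hnrnpf in peak 5: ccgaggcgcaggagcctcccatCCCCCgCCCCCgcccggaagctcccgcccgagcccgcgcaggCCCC

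The intron stretch of Hnrnpf was 73.2% G and C, with 1 run of 11 G and 3 runs of C, the longest of 7. The part of peak 5 was 83.8% G and C, with 3 runs of C and no run of 4 G. In the table of windows from 250 bases before to 50 after a RefSeq start, 7 of the 8 genes had entries, 10 windows in all, and Matr3 had none. GGGG was in 8 of the 10 windows and CCCC in 9. Over 32851 windows of all genes the shares were 69.0% and 66.6%, and over 447 windows of genes with a peak they were 83.4% and 81.4%. GGGG on one strand is CCCC on the other, so the counts cover both strands of the DNA and are not counts in the RNA. The median G and C content was 70.5% in the 10 windows, 66.0% in windows of genes with a peak and 52.7% in all windows. Among the peaks of the 8 genes, only Hnrnpf peak 5 shared bases with one of these windows. Hnrnpf also had more windows than any other of the genes. The counts and the G and C content therefore do not describe the RNA under the other peaks. A match is only a description of these letters.

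Across the 8 genes, enrichment was above the middle of the list. The 15 peaks had a median log2 enrichment of 5.85 (57.8-fold over input), with quartiles of 5.72 and 6.23, beside 5.31 (39.6-fold) for all 900 peaks. Of the 15 peaks, 13 exceeded the median of the list (86.7%). The exceptions were the single peaks of Taf15 at 4.94 and Tardbp at 4.81, which were the lowest of the group. The list begins at a log2 enrichment of 3 and a −log10 p of 3, and the lowest values of the 15 peaks were 4.81 and 6.49. Peaks outside those limits were not analysed here. Taking the highest peak of each gene, the median was 5.81 for the 8 genes and 5.36 for all 459. Median width was 83.0 nt (range 37 to 130 nt), beside 65.0 nt for all peaks.

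**Figure D1:**
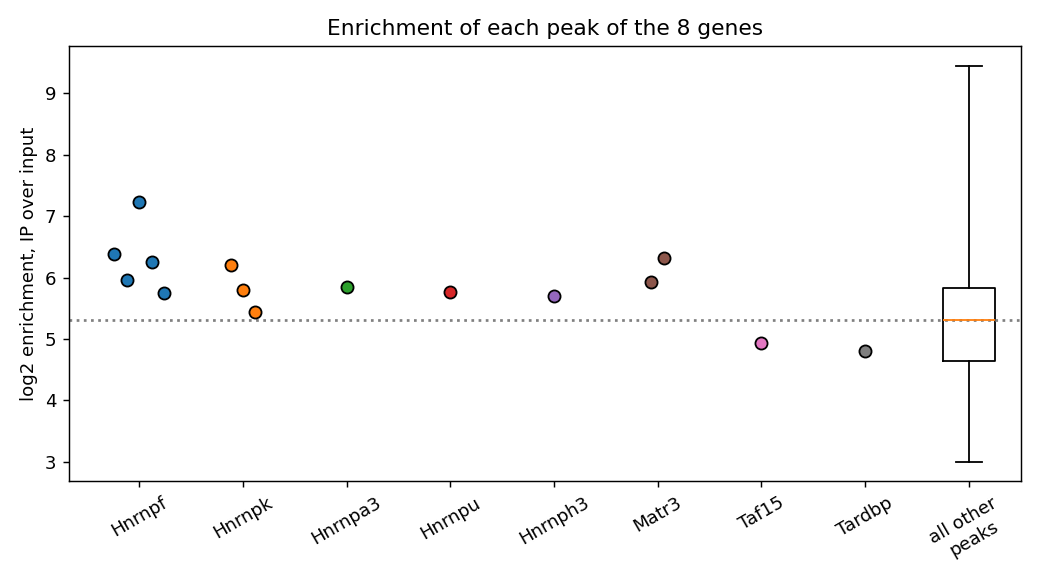
Each dot is 1 peak, placed by gene and by log2 enrichment of IP over input, with the peaks of a gene in 5′ to 3′ order. The box shows the quartiles and the whiskers the full range of all other peaks, and the dotted line is the median of the whole list, 5.31. Only Taf15 and Tardbp lie below that line.

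Hnrnpf had the most peaks and the highest enrichment of the 8 genes. Its product, hnRNP F, binds G-rich RNA and acts on alternative splicing. It had 5 peaks on the plus strand of chromosome 6, with a mean log2 enrichment of 6.31 ± 0.57 (SD over 5 peaks). Of the 459 genes, 18 had more peaks, and by its highest peak Hnrnpf ranked 14.
Peak 1 (117906910 to 117907006) had a log2 enrichment of 6.38 (83.5-fold). Peak 2 (117907236 to 117907325) had 5.95 (61.9-fold). Peak 3 (117907414 to 117907543), the widest of the 15 peaks at 130 nt, had 7.23 (150.4-fold).
The last value was the highest of the 8 genes and ranked 24 among the 900 peaks. Peak 4 (117907995 to 117908039) had 6.25 (76.3-fold). Peak 5 (117917226 to 117917338) had 5.75 (53.6-fold), the lowest of the gene.

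The peaks of Hnrnpf gathered around internal transcript starts listed in RefSeq. Peaks 1 to 4 spanned 1130 nt, and peak 5 followed 9186 nt further on. RefSeq lists 4 starts of the gene in the window table, at 117900340, 117906782, 117907804 and 117917294. No peak lay next to the first start, from which peak 1 was 6570 nt away. Peak 1 began 128 nt and peak 2 454 nt after the second start. Peak 3 ended 261 nt before the third start, and peak 4 began 191 nt after it. The authors' annotation differs here. Among its transcripts over these peaks, the nearest start was 629.5 nt from the midpoint of peak 3 and 1168 nt from that of peak 4. Peak 5 lay across the fourth start, from 68 nt before it to 44 nt after it. Seen from the longest coding transcript, which begins upstream, the midpoints of peaks 1 to 4 were 6618 to 7677 nt from the start.

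**Figure D2:**
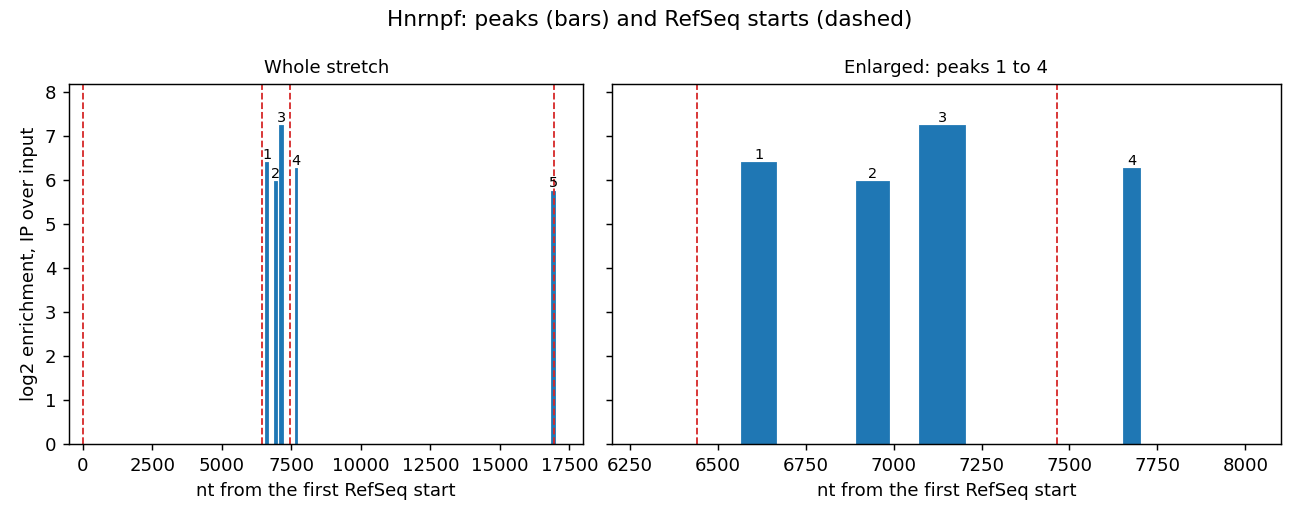
The bars are the 5 Hnrnpf peaks, with height as log2 enrichment and width to scale, numbered in 5′ to 3′ order; the dashed lines are RefSeq starts and the horizontal axis is the distance in nt from the first of them. Peaks 1 to 4 lie around the second and the third start, enlarged in the right panel, and peak 5 lies on the fourth.

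The annotated class of the Hnrnpf peaks depended on the transcript. The authors classed peaks 1 and 5 as 5′ UTR and peaks 2, 3 and 4 as distal intron. Peak 1 lay in a 5′ UTR exon of 360 nt in 1 transcript and in an intron of the other 5 that covered it. Peak 5 lay in an intron of 7 transcripts, and 45 and 36 of its 113 nt fell in the first exons of 2 others. Peaks 2, 3 and 4 were intronic in all 6 transcripts over them. Peak 2 nevertheless began 27 nt after the nearest 5′ splice site, so the authors' class and the distance computed here differed.

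Hnrnph3 belongs to the same hnRNP F/H family. Its single peak lay on the minus strand of chromosome 10 at 63023530 to 63023586 and had a log2 enrichment of 5.70 (52.1-fold). It began 133 nt after the 5′ splice site of an intron of 4192 nt, which opens 128 to 498 nt from the starts of the 4 transcripts over it. Of these transcripts 3 are annotated as protein-coding and 1 as a target of nonsense-mediated decay. The midpoint was 289 nt from the nearest start.

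Hnrnpk encodes hnRNP K, which binds C-rich RNA and DNA through KH domains. It had 3 peaks within 509 nt on the minus strand of chromosome 13, with a mean of 5.81 ± 0.38 (SD over 3 peaks). Peak 1 (58401974 to 58402062) had the highest log2 enrichment of the gene, 6.20 (73.6-fold). Peak 2 (58401619 to 58401655) had 5.79 (55.4-fold) and peak 3 (58401554 to 58401618) had 5.43 (43.3-fold).
Peaks 2 and 3 touched, so the gene had 2 separate sites. All 3 were intronic in each of 11 transcripts. Peak 1 began 1 nt from the 5′ splice site of the nearest intron. Its first bases lay 55 nt after 58402117, the RefSeq start of the gene's window. The RefSeq gene begins further upstream, at 58403343, and the midpoint of peak 1 was 1325 nt from the start of the longest coding transcript. The intron measured 891, 1646 or 1975 nt by transcript. Peaks 2 and 3 lay further in, 408 and 445 nt from the nearest 5′ splice site and 446 and 381 nt from the nearest 3′ splice site.

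Hnrnpa3, an hnRNP of the A/B family, had 1 peak on the plus strand of chromosome 2 at 75659493 to 75659581. Its log2 enrichment was 5.85 (57.8-fold), the middle value of the 15 peaks. Its −log10 p of 68.1 was the highest of the 15 and ranked 93 in the list, whereas by enrichment the peak ranked 220. Hnrnpf peak 3 came next with a −log10 p of 51.7, and Hnrnpk peak 2 was lowest with 6.49. The order by p thus differed from the order by enrichment. The Hnrnpa3 peak began 234 nt after the RefSeq start of the gene's window, 75659259, and the RefSeq gene begins upstream at 75659105. It lay inside an intron of 2076 or 2142 nt in all 6 transcripts and 103 nt from the nearest 5′ splice site.

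**Figure D3:**
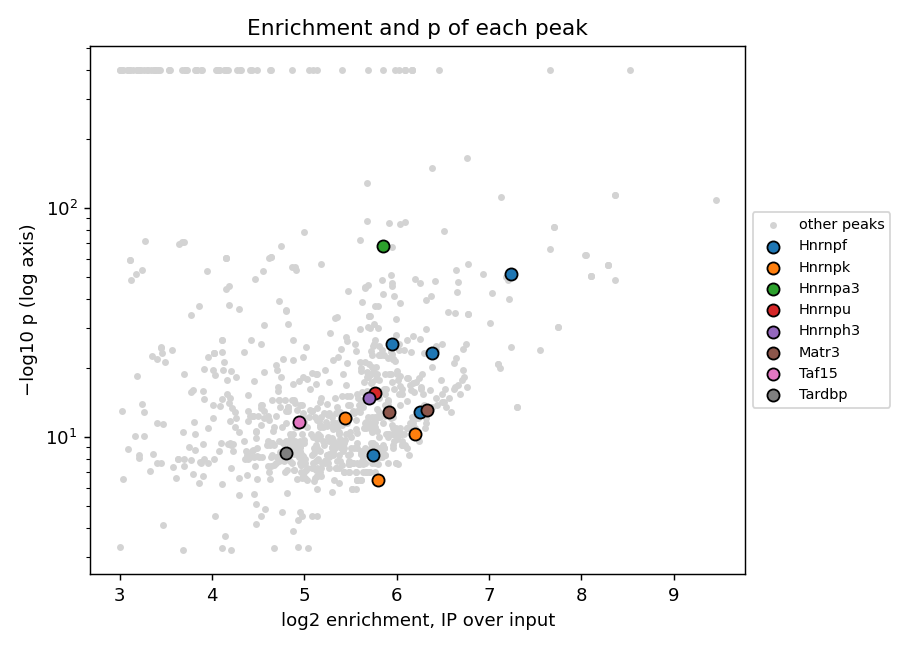
Each point is a peak, placed by log2 enrichment (horizontal) and −log10 p on a log axis (vertical), with the 8 genes in colour and other peaks in grey. Hnrnpa3 has the highest −log10 p of the 8 genes, 68.1, at a log2 enrichment of 5.85, and none of the 15 peaks is among the 72 that share the ceiling at the top.

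Hnrnpu encodes hnRNP U, also known as SAF-A, a large nuclear protein that binds RNA and chromatin. Its peak on the minus strand of chromosome 1 (178336691 to 178336773) had a log2 enrichment of 5.76 (54.2-fold). It lay 179 nt from the 5′ splice site of an intron of 794 nt. That intron opens 776 and 845 nt from the starts of the 2 transcripts, so the peak was further from the start than in Hnrnpa3 and Hnrnph3. The midpoint was 996 nt from the nearest annotated start, and the peak began 1042 nt from the RefSeq start of the gene's window, 178337815. The RefSeq gene begins further upstream, at 178338891.

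Matr3 encodes matrin 3, a nuclear matrix protein that binds RNA and is linked to motor neuron disease. It had 2 touching peaks on the plus strand of chromosome 18, at 35562322 to 35562390 and 35562391 to 35562439. Their log2 enrichments were 5.92 (60.6-fold) and 6.32 (80.1-fold).
The second ranked 79 among the 900 peaks. Both were classed as 5′ UTR, yet this held for 1 of 8 transcripts of the gene and the other 7 had an intron there. The midpoints were 57 and 116 nt from the nearest annotated start. Both peaks also lay within 6 transcripts of Gm28285, a gene on the same strand that begins upstream, so the peaks could not be given to Matr3 by position alone.

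Taf15 and Tardbp had the 2 peaks that the authors classed as coding sequence. Taf15 encodes an RNA-binding protein of the FET family. Its peak on the plus strand of chromosome 11 (83504727 to 83504842) had a log2 enrichment of 4.94 (30.8-fold). It lay wholly inside a coding exon of 463 nt in 1 transcript. In the other transcript an intron of 120 nt takes up most of the peak, and the last 12 nt are in the next exon. The midpoint was 31692.5 nt from the start of the longest coding transcript, at a relative position of 0.942 along it.

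Tardbp encodes TDP-43, which binds UG-rich RNA and is known to lower its own level through its 3′ UTR. Its peak on the minus strand of chromosome 4 (148618210 to 148618279) had a log2 enrichment of 4.81 (28.0-fold) and a −log10 p of 8.54. The authors classed it as coding sequence, and it covered a stop codon. In the transcript with the longest such exon, 6410 nt, 16 nt of the peak were coding and 54 nt were in the 3′ UTR, the stop codon included. In 20 of the 23 transcripts over the peak it lay in an intron, of 821 to 2835 nt. Of the 23 transcripts, 10 are annotated as targets of nonsense-mediated decay. The RefSeq start of the gene's window was 8717 nt away, while an annotated transcript begins 122.5 nt from the midpoint.

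In the authors' classes, 9 of the 15 peaks were intronic, 5 in the authors' distal and 4 in their proximal intron class. A further 4 were in 5′ UTRs and 2 in coding sequence, and 0 were in 3′ UTRs. For the intronic share the exact Clopper-Pearson 95% interval was 32.3 to 83.7% (counting error only). This interval takes the 15 peaks as independent draws. Peaks of the same gene are not independent, and the genes were chosen by name, so nothing is read from the interval. Over all 900 peaks, introns of coding genes held 57.0% (30.1% distal and 26.9% proximal), 5′ UTRs 16.6% and coding sequence 10.3%. When each peak was placed by most of the transcripts over it, 14 of 15 were intronic (93.3%), all except that of Taf15. The same count over the 766 peaks in coding transcripts was 74.2%. Both counts give each annotated transcript equal weight and take no account of which are expressed. All 4 peaks classed as 5′ UTR lay in an intron of another transcript. In the whole list this held for 84 of 149 when only transcripts of the same gene were counted. Of the 15 peaks, 0 overlapped an annotated snoRNA, scaRNA, snRNA, rRNA or microRNA, beside 48 of the 766.

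**Figure D4:**
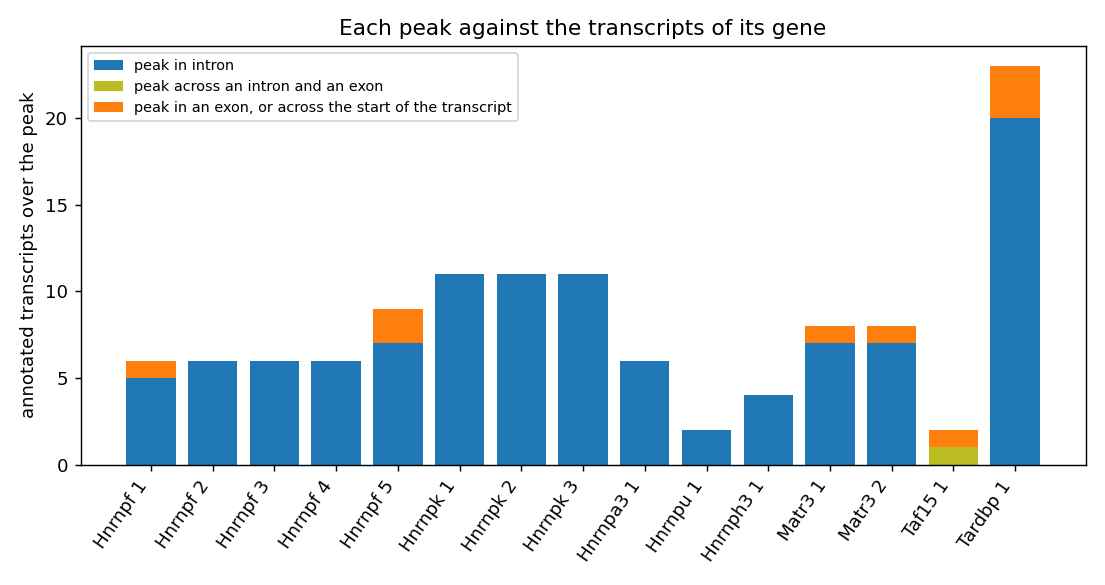
Each bar is 1 peak and its height is the number of annotated transcripts of the gene over that peak, split by whether the peak is in an intron, in an exon or across both. Introns make up most of every bar except that of Taf15, and 20 of the 23 transcripts of Tardbp have an intron there.

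Of the 14 peaks inside an intron, 12 were closer to a 5′ than to a 3′ splice site (85.7%), a share near that of the whole list (82.4% of 625 peaks). The exceptions were Hnrnpf peak 5, at 154 and 131 nt, and Hnrnpk peak 3. The median distance to the nearest 5′ splice site was 143.5 nt, beside 329 nt in the list.

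How close the peaks were to a start turned on which start was used. From the start of the longest coding transcript, 3 of 8 genes had a peak midpoint within 1 kb (Hnrnpa3, Hnrnph3 and Matr3), beside 250 of 394 coding genes with a peak (63.5%). From the nearest start of any transcript over the peak, 7 of 8 did, all except Taf15, beside 316 of 394 (80.2%). Both shares are of genes with at least 1 such peak, so genes with more peaks have more chances. By peaks, 13 of 15 midpoints were within 1 kb of the nearest start (86.7%, beside 69.7% of 766), with a median distance of 289 nt beside 401 nt. From the start of the longest coding transcript the order was reversed. There 4 of 15 were within 1 kb (26.7%, beside 50.9%), with a median of 1757 nt beside 951.8 nt.

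**Figure D5:**
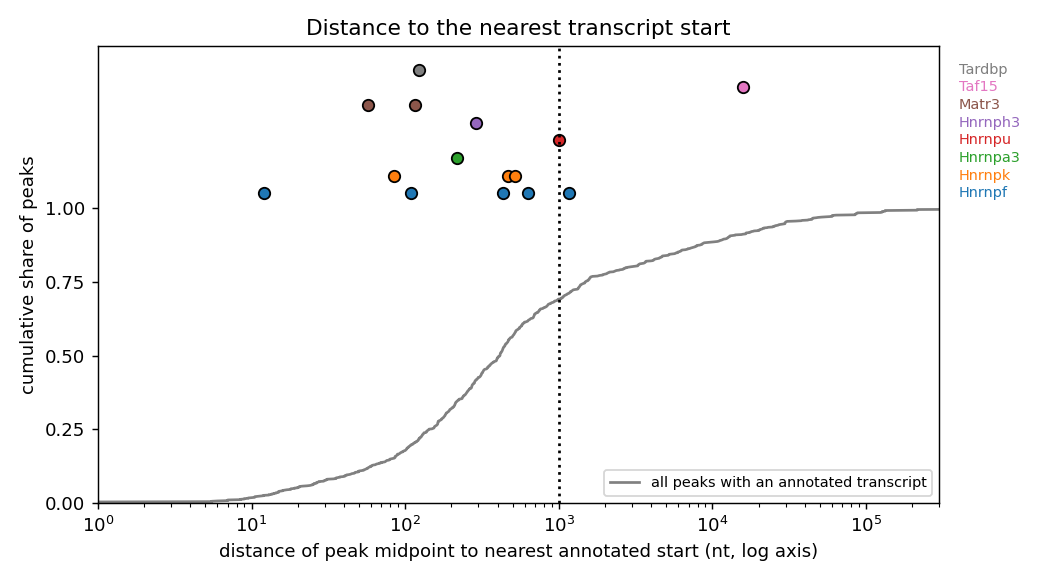
The grey line gives the cumulative share of all peaks by distance of the midpoint from the nearest annotated transcript start (nt, log axis), and the dots above it place the peaks of each of the 8 genes on the same axis. Starts are those of the authors' annotated transcripts over each peak, not those of RefSeq. The dotted line marks 1 kb, and the peak of Taf15 and peak 4 of Hnrnpf lie to its right.

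The wider families were taken from lists by name. Of 26 hnRNP genes 5 had a peak (19.2%), all of them among the 8 described here. Hnrnpa1, Hnrnpa2b1, Hnrnpc, Hnrnph1, Hnrnpl and Ptbp1 are among the 21 with none, which is no evidence that DDX5 does not bind their RNA. Of 12 FET, TDP-43 and paraspeckle-related genes 4 had one (33.3%), and the gene outside the 8 was Sfpq, a paraspeckle protein, with 1 proximal intron peak at 5.63. Of 29 other RNA-binding protein genes 4 had a peak (13.8%). Fubp1, a single-stranded nucleic acid binder, reached 5.72 and Pabpn1, the nuclear poly(A)-binding protein, 5.18, both in coding sequence. Mbnl1, a splicing regulator, had 4.78 in a distal intron peak and Pabpc1, the cytoplasmic poly(A)-binding protein, 3.63 in a 5′ UTR. All of these counts are beside the 1.81% of coding genes in general, a share that takes no account of expression. The 8 genes were chosen because they had a peak, and the lists were made with earlier results known. No enrichment of a family is therefore read from these counts.

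SR proteins, the other large class of splicing regulators, gave a comparison. In this list 5 of 24 genes had a peak (20.8%), Srsf4, Srsf6, Tra2a, Srrm2 and Luc7l2, with 8 peaks. Their median log2 enrichment was 5.39, beside 5.85 for the 15 peaks of the hnRNP and related genes. All 8 peaks were of the proximal intron class, beside 4 of 15 for the hnRNP and related genes and 26.9% of the whole list. Srrm2 alone had 4 of these 8 peaks. By distance the picture was another. The median to the nearest 5′ splice site was 211.5 nt for the SR genes and 143.5 nt for the hnRNP and related genes. In the list it was 329 nt. To the nearest 3′ splice site the medians were 499.5 and 518 nt, beside 11194 nt in the list. Of the 8 peaks, 1 overlapped a small RNA gene. These differences were not tested.

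The distribution over region classes was compared with other genes for the 2 genes of the group with at least 3 peaks. Among 87 other genes with as many, the one closest to Hnrnpk by the summed difference in class shares was Anp32a, whose 3 peaks had the same classes (2 distal intron, 1 proximal intron) and reached 6.63. The one closest to Hnrnpf was Rara, with 2 distal intron peaks and 1 in a 5′ UTR, a summed difference of 0.133 and a highest value of 6.64.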

How the data were processed

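The deposited list of 900 reproducible peaks was analysed. Per the submitters' processing notes, reads were handled with cutadapt 1.9.1, STAR 2.4.0i and SAMtools 1.4.1 on mm10. Per the deposited settings, the authors normalised each IP to its own input, joined both replicates by the irreproducible discovery rate method with minimum values of 3 for both the log2 fold and the −log10 p. For the caller, the reproducibility threshold and the annotation release, the sources used here state nothing. Each deposited peak has 1 log2 enrichment and 1 −log10 p that cover both replicates.

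Genes were matched by any name in the comma-separated name column, and all 8 symbols were found in RefSeq (GRCm38.p6). Starts were read as counted from 0. Positions came from the transcripts, exons and introns that the authors' annotation lists for each peak. A site joins touching peaks on 1 strand. A peak is intronic in most transcripts when it is so in more than it overlaps an exon of. Every peak of the 8 genes and every listed gene with a peak is named. The most similar gene is the one with the smallest summed difference in class shares, then the closest highest peak. Members, lists and alternatives were chosen with earlier results of these data known, and the alternative with RefSeq starts was added after the data were examined. No test was run. Python 3.11.15, pandas 2.3.3, SciPy 1.17.1 and matplotlib 3.10.9 were used. The depth per library is unknown.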

Additional observations from a re-analysis of the deposited data

How the results depend on the processing

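The count of 15 peaks did not change with a minimum log2 enrichment of 4, with a minimum −log10 p of 5, with only peaks of 1 gene name and without small RNA genes. Both Matr3 peaks passed the setting of 1 gene name although Gm28285 transcripts also cover them. That setting therefore cannot tell which gene they belong to. Sites numbered 13, and 12 when peaks up to 200 nt apart were joined. The median log2 enrichment stayed between 5.78 (without Hnrnpf, the gene with the most peaks) and 5.85. The 9 family genes with a peak were also 9 by overlap with the gene span and with a minimum log2 enrichment of 4. Position was the result that moved with the choice of transcript: 3 genes had a peak within 1 kb of the longest transcript's start, 7 with the nearest start of any transcript, 5 within 2 kb and 4 with RefSeq starts, where Matr3 had no entry. Intronic peaks were 9 by the authors' class and 14 by most transcripts. No paired analysis was possible because the list gives 1 value for both replicates, and for the same reason no replicate could be left out. Depth is unknown, so no limit of detection can be given.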

Other observations

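Many values of the list recur exactly. Of the 15 peaks, 11 shared their −log10 p with at least 1 other peak (73.3%), as did 630 of all 900 (70.0%), and the list held 415 distinct values. The −log10 p of Hnrnpf peak 5 was shared by 18 peaks in all and that of Hnrnpk peak 1 by 12, while those of Hnrnpf peak 3, Hnrnpa3, Hnrnpu and Taf15 were each found once. Of the log2 enrichments, 8 of the 15 recurred (53.3%), beside 364 of 900 (40.4%). The cause was not tested.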
